A study of Mus musculus with 2 samples.

Results

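Gabrp and Gad1 are the 2 genes of GABA synthesis and GABA reception among the 479 genes of a spatial transcript panel measured in mouse tumour sections. Both were chosen by name, with their counts in these sections already known: Gabrp had been seen to be higher in one section and Gad1 in the other. The section differences are therefore given as descriptions. Of a list of 30 genes for GABA synthesis, breakdown, transport and receptors, only these 2 were on the panel, so no other receptor subunit, transporter or breakdown enzyme was measured.

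GABA is the main inhibitory transmitter of the adult brain, and cells outside the nervous system also make and sense it. Gad1 encodes a glutamate decarboxylase, the enzyme that turns glutamate into GABA. Gabrp encodes the pi subunit of the GABA-A receptor, a chloride channel opened by GABA; unlike most subunits of that receptor, it is found mainly in epithelia, including secretory glands and some carcinomas. RNA was measured here, and neither GABA nor the protein of either gene.

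The series holds 1 section of an EKP tumour and 1 section of an RKP tumour. C57BL/6 mice aged 5 weeks received cultured EKP or RKP cells in Matrigel subcutaneously, in each flank, and the tumours, labelled diffuse gastric cancer, were taken when groups had reached like volumes and embedded in paraffin. The labels do not spell out the letters of either line, and the series title refers to mutant RHOA. No group is an untreated control, and the number of mice or clones behind each section is not given. With 1 section per group there is no replicate, so every interval below is a 95% interval for counting error only and no test between EKP and RKP was possible.

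Xenium In Situ reads out individual RNA molecules within the tissue and gives each to a segmented cell, called a barcode here. The EKP section had 261111 barcodes with 31597828 gene counts and a median of 84 per barcode; the RKP section had 255744 barcodes with 44294494 gene counts and a median of 154. Barcodes with fewer than 40 gene counts made up 38.0% of the EKP section and 8.07% of the RKP section, and were left out of all gates below. The 161996 EKP and 235115 RKP barcodes that remained had the same median of 165 gene counts. The matrices shared 19 barcode names. Levels are counts per 1000000 gene counts (CPM), and only counts of the same gene are compared, since probe yields differ between genes.

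Over the whole sections, Gabrp had 24515 counts in EKP (776 CPM) and 244221 in RKP (5514 CPM), a 7.11-fold higher level in RKP (7.01 to 7.20). Gad1 had 6912 counts in EKP (219 CPM) and 3593 in RKP (81.1 CPM), a 2.70-fold higher level in EKP (2.59 to 2.81). Gabrp was carried by 29.0% of RKP barcodes and 5.04% of EKP barcodes, with up to 35 and 20 counts in a barcode. Gad1 was carried by 2.47% of EKP barcodes and 1.34% of RKP barcodes, never with more than 4 counts. For comparison, of 477 panel genes above background 8.18% had an RKP excess of 2-fold or more, and 34.8% an EKP excess of that size. By size of the RKP excess Gabrp was 6th of the 477, while Gad1 was 340th, within the large group that was higher in EKP.

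Background was measured with 20 negative control probes, designed against no transcript of the mouse, and with control codewords that no probe carries. The highest control probe reached 311 counts in EKP and 162 in RKP, so Gad1 stood 22.2-fold above it in each section, and Gabrp 78.8-fold and 1508-fold. The probes too were higher in EKP, at 9.84 against 3.66 CPM for the highest and 2.50 against 0.786 CPM for the mean. Gad1 stood 87.3-fold above the mean probe in EKP and 103-fold in RKP. As a multiple of the probes, its whole-section EKP excess was thus not seen. With the mean probe subtracted, its RKP over EKP ratio was 0.371. One of the 41 negative control codewords was much higher than the others, with 1897 counts in EKP and 2373 in RKP, against 105 and 157 for the next. That codeword was above every control probe over whole sections and is given beside the values of Gad1. The sources used here do not explain its height. Whether it measures the background of Gad1 was not tested. RefSeq's mouse gene table also lists a Gad1 pseudogene, Gad1-ps; the sources used here do not say whether the panel's Gad1 probes could match it.

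Most Gabrp counts came from epithelial barcodes. Epcam encodes the epithelial adhesion molecule EpCAM, and barcodes with 5 or more Epcam counts numbered 42805 in EKP and 73160 in RKP; they are called Epcam-high. Their epithelial markers (Epcam, Krt8, Cdh1, Krt19 and Cldn4, the 5 of 6 listed genes on the panel) summed to 189055 CPM in EKP and 174055 CPM in RKP, against 9619 and 10781 CPM in barcodes with Csf3r and no Epcam. Epcam, which sets both gates, supplied 52599 and 51304 CPM of the Epcam-high sums. Krt8, which sets neither, stood at 48391 and 41172 CPM against 4936 and 5480 CPM. When each barcode was assigned once, in the order low-count, Epcam-high, Csf3r, Ptprc, Lum and none of these, Epcam-high barcodes held 82.4% of EKP Gabrp counts and 86.7% of RKP Gabrp counts. They held only 36.6% and 42.7% of the counts of all genes.

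**Figure D1:**
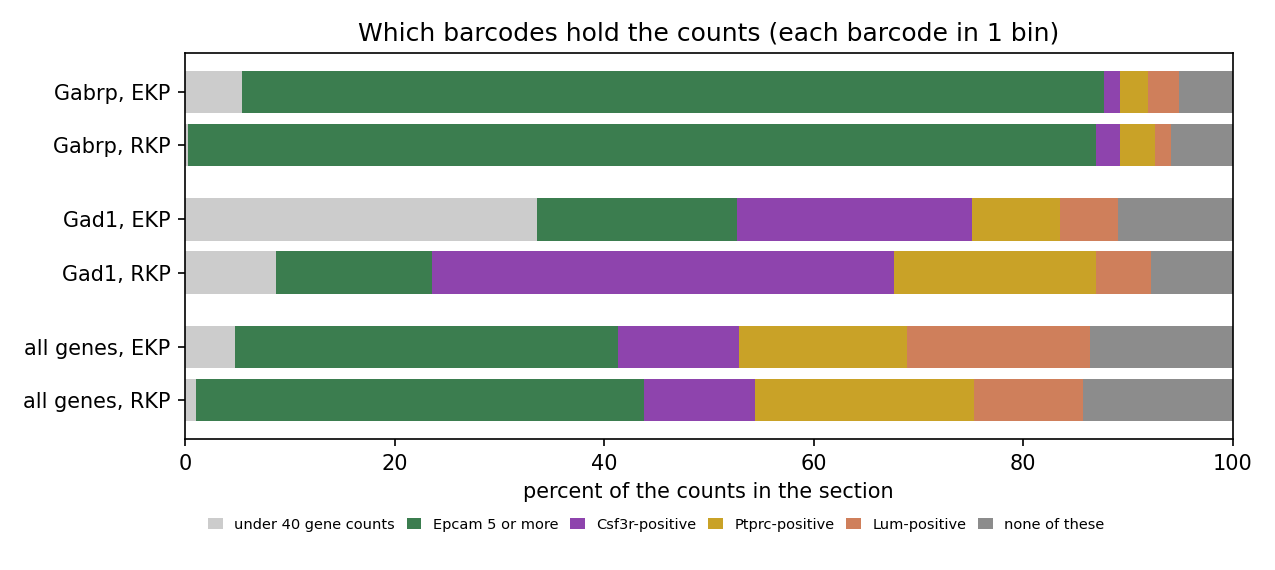
Share of the counts of Gabrp, Gad1 and all genes (percent, horizontal axis) held by 6 exclusive classes of barcode in each section; each bar sums to all counts of that gene in the section. Gabrp sits mostly in Epcam-high barcodes (82.4% and 86.7%), while Gad1 spreads over Csf3r-positive barcodes, low-count barcodes and the rest.

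In Epcam-high barcodes Gabrp stood at 1746 CPM in EKP (1722 to 1770) and at 11195 CPM in RKP, a 6.41-fold difference (6.32 to 6.51). The RKP excess of the whole section was therefore present within epithelium of like Epcam content. Of 471 genes above background in this gate, 16.6% had an RKP excess of 2-fold or more and 22.7% an EKP excess of that size, and Gabrp was 23rd from the RKP end. At least 1 Gabrp count was found in 22.0% of EKP and 74.4% of RKP Epcam-high barcodes, which had median totals of 261 and 241 gene counts. After each barcode was thinned at random to 40 gene counts, so that depth was equal, the shares were 5.81% (5.59 to 6.04) and 32.7% (32.4 to 33.0).

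The counts per epithelial barcode were as follows. In EKP 78.0% of Epcam-high barcodes had no Gabrp count, the median was 0, and the 10% of barcodes with the most Gabrp held 73.7% of its counts. In RKP 25.6% had none, the median was 2, and the top 10% held 35.4%. Barcodes with 5 or more Gabrp counts were present in EKP too, 898 in all. These shares depend on the mean level, which differs between the sections, and the spread at a matched Gabrp level was not compared.

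Among Epcam-high barcodes with 40 or more gene counts, Gabrp was higher in RKP in each of 4 depth bins, by a varying factor. In Epcam-high barcodes with 40 to 79 gene counts, Gabrp stood at 683 CPM in EKP and 9338 CPM in RKP, 13.7-fold apart (10.2 to 18.8). The ratio was 8.04-fold in the bin starting at 80 gene counts, 6.60-fold in that starting at 160 and 5.98-fold (5.86 to 6.11) at 320 or more. The RKP level moved little across these bins, from 9338 to 11467 CPM, and the EKP level went from 683 to 1819 CPM.

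Gabrp followed the Epcam count of a barcode. In EKP its level was 58.6 CPM in barcodes with no Epcam count, 385 CPM with 2, 1622 CPM with 5 to 9, and 1953 CPM with 10 to 19. In RKP the same bins gave 316, 2521, 10218 and 12426 CPM. In both sections the level was a little lower again at 20 or more Epcam counts, at 1559 and 10273 CPM.

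Among the marker gates, which overlap, the RKP order was led by 6311 gland-like secretory barcodes, defined by 3 or more summed counts of Ambp, Sftpd, Gc and Muc3a. They stood at 15984 CPM, and 86.9% carried Gabrp. EKP had only 19 such barcodes and is not described for that gate. Barcodes with 5 or more counts of Krt8, a keratin of simple epithelia, and 1 to 4 Epcam counts came lower, at 4654 CPM in RKP and 588 CPM in EKP. Krt8 barcodes with no Epcam count were far lower, at 162 CPM (147 to 179) in RKP and 39.2 CPM in EKP, where the control codeword stood at 40.8 CPM. RKP barcodes with 3 or more counts of Krt5, a basal keratin, also had little, at 207 CPM. Krt8 barcodes thus had more Gabrp with 1 to 4 Epcam counts than with none. The Krt5 gate was not split by Epcam.

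Among RKP gates for other cell types, neighbours in the order often did not differ beyond counting error. Barcodes with Cpa3, a mast cell protease, stood at 4440 CPM and barcodes with the granule genes Ptprn2, Scg2 and Snap25 at 4393 CPM, with overlapping intervals. Csf3r-positive and Ptprc-positive barcodes stood at 3013 and 2974 CPM, also overlapping. Cd3e, Lum and Cd68 barcodes stood at 2629, 2608 and 2595 CPM. Pecam1 barcodes, which mark endothelium, had 828 CPM. Every one of these gates can hold barcodes with Epcam counts.

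When barcodes with any Epcam count were removed, most Gabrp in the immune and stromal gates went with them. Csf3r-positive barcodes went from 3013 to 476 CPM in RKP and from 236 to 52.5 CPM in EKP. Ptprc-positive barcodes without Epcam stood at 314 CPM in RKP and 49.6 CPM in EKP, and Lum-positive ones at 278 and 42.1 CPM. In all 3 EKP gates that is below the control codeword, at 98.0, 84.6 and 119.8 CPM, and in the RKP gates it is above it, at 91.1, 72.5 and 144 CPM. Gabrp in Epcam-high barcodes stood 41.4-fold above Lum-positive barcodes without Epcam in EKP and 40.3-fold in RKP, 12th in each section; 17.4% and 20.8% of genes reached 2-fold in that comparison.

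The small Gabrp level of barcodes without Epcam lay within the wide range seen for the other epithelial genes compared. As a percentage of the Epcam-high level, Gabrp in Csf3r-positive barcodes without Epcam was 3.00% in EKP and 4.25% in RKP. The tight-junction gene Cldn4 was at 1.57% and 3.04% there, Prom1 at 1.98% and 3.18%, Muc4 at 2.66% and 2.82%, and Krt8 at 10.2% and 13.3%. Cldn2 was at 3.56% and 2.80%, Cdh1 at 4.75% and 11.3%, and Krt19 at 7.78% and 6.73%. In RKP Gabrp was thus above Cldn4, Prom1, Muc4 and Cldn2, and below Cdh1, Krt19 and Krt8. The RKP excess of Gabrp in this gate was 9.07-fold, 2nd of 473 genes. Of these, 8.25% had an RKP excess of 2-fold or more there, and 31.9% an EKP excess. In RKP barcodes with no Epcam, Gabrp was higher with more Csf3r, from 279 CPM at 0 Csf3r counts to 819 CPM at 5 or more. In EKP it was not, at 60.3 and 38.0 CPM. Whether the Gabrp counts of barcodes without Epcam come from neighbouring cells was not tested.

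**Figure D2:**
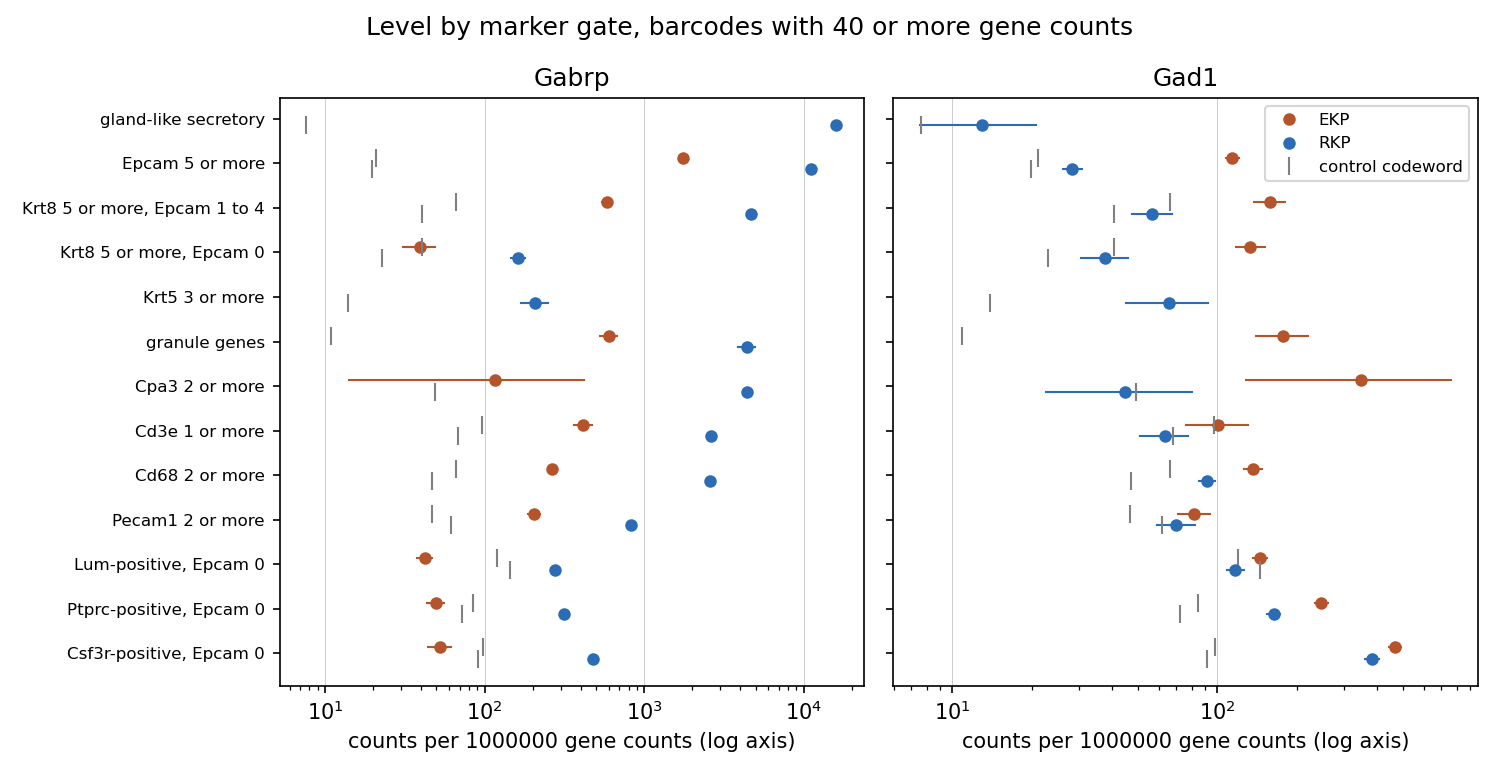
Level of Gabrp (left) and Gad1 (right) in counts per 1000000 gene counts, log axis, in each marker gate of both sections; points are the pooled level of a gate, bars its 95% counting interval and grey ticks the highest control codeword, and gates with a count of 0 or under 50 barcodes have no point. Gabrp is highest in the gland-like and Epcam-high gates and Gad1 in the Csf3r-positive gate without Epcam, although the EKP Cpa3 interval, from 6 Gad1 counts, reaches higher.

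Over the 24 gates of both sections with 50 or more barcodes, the genes whose levels were most like Gabrp were Cldn2, a claudin that forms cation pores (r = 0.98), Prom1 (r = 0.97), Muc4 (r = 0.96), Muc20 (r = 0.94) and Tfcp2l1 (r = 0.93). These gates share barcodes and sections, so the correlations are descriptions. Prom1 marks ductal and progenitor epithelium, and Muc4 and Muc20 encode membrane mucins.

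The same genes differed between barcodes with and without Gabrp inside the Epcam-high gate. With barcodes thinned to 40 counts, EKP carriers had 2.99-fold more Cldn2 (2.62 to 3.41), 2.79-fold more Muc20, 2.44-fold more Hp, 2.09-fold more Cp and 2.03-fold more Prom1 than non-carriers. Hp and Cp encode the secreted plasma proteins haptoglobin and ceruloplasmin. RKP carriers had 1.99-fold more Hp (1.90 to 2.09), 1.78-fold more Sftpd, a secreted lung-type collectin, 1.53-fold more Muc20, and 1.47-fold more of both Lgr5 and Muc1. Thinning hid most RKP carriers: 23917 of 54428 still had a Gabrp count, and the rest counted as non-carriers. With all carriers set against non-carriers of like depth, without thinning, the RKP ratios were 3.89 for Hp, 4.06 for Sftpd, 2.53 for Muc20, 2.09 for Lgr5 and 2.16 for Muc1, and the EKP ratios 3.88 for Cldn2, 3.36 for Muc20 and 3.10 for Hp. Of the 9 listed ductal and secretory genes on the panel, 8 were higher in thinned EKP carriers and 1 lower, and 7 were higher in RKP carriers and 2 lower. Ptn was lower in both, at 0.340 (0.136 to 0.707) and 0.566 (0.487 to 0.655). Among the 8, Krt5 rested on 2 counts (1.85, 0.209 to 7.75) and was at 0.857 without thinning. Aqp5 in EKP was at 1.11 (0.970 to 1.26). The share of all panel genes that was higher in carriers was not computed, so these counts have no background.

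Genes that were lower with Gabrp differed in part. In EKP the proliferation gene Mki67 was at 0.601 of the non-carrier level (0.506 to 0.708), and in RKP at 0.920 (0.880 to 0.961). The lowest gene in EKP carriers was F3, encoding tissue factor, at 0.481 of the non-carrier level, but in RKP it was at 1.11. The matricellular gene Aspn, at 0.45 in RKP, and the macrophage receptor gene Mrc1 were also low in carriers. Krt5 was at 0.208 in RKP carriers (0.171 to 0.250).

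**Figure D3:**
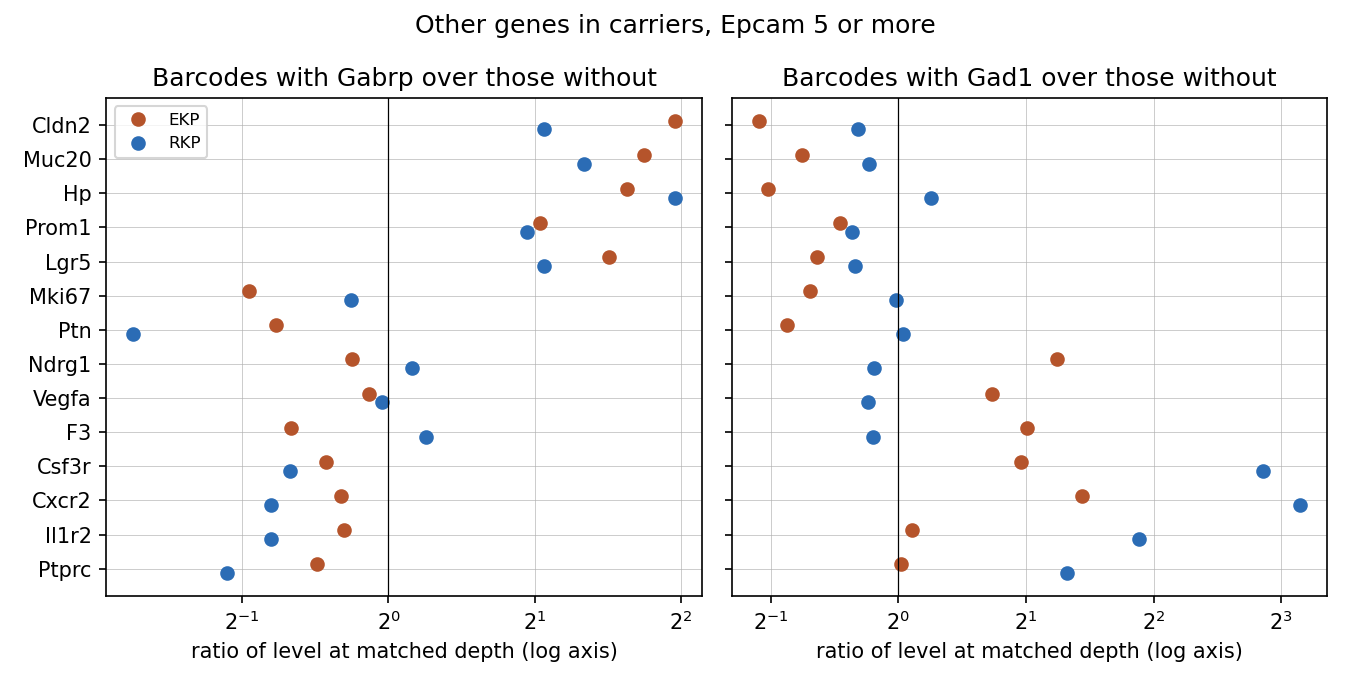
Level of 14 genes in Epcam-high barcodes that carry Gabrp (left) or Gad1 (right) over that in barcodes that do not, in each section, as the observed count over the count expected from non-carriers of like depth (log axis). Cldn2, Muc20, Hp, Prom1 and Lgr5 lie above 1 for Gabrp in both sections; for Gad1, Ndrg1, Vegfa and F3 lie above 1 in EKP, while Csf3r, Cxcr2 and Il1r2 lie farther above 1 in RKP.

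Gad1 counts were spread over several kinds of barcode. Of EKP Gad1 counts, 33.6% were in barcodes with fewer than 40 gene counts, 22.5% in Csf3r-positive, 19% in Epcam-high, 8.39% in Ptprc-positive and 5.57% in Lum-positive barcodes, by the exclusive order above. Of RKP Gad1 counts, 44.1% were in Csf3r-positive, 19.3% in Ptprc-positive, 14.9% in Epcam-high and 8.66% in low-count barcodes. Csf3r-positive barcodes outside the Epcam-high gate held just 11.5% and 10.7% of the counts of all genes, so both sections had more Gad1 there than their share of transcripts.

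Csf3r encodes the receptor for granulocyte colony-stimulating factor, a marker of neutrophils. Among barcodes with Csf3r and no Epcam, 21614 in EKP and 21266 in RKP, the neutrophil genes Csf3r, Cxcr2 and Il1r2 (the 3 of 5 listed genes on the panel) summed to 29524 and 30309 CPM, against 934 and 1439 CPM in Epcam-high barcodes. Csf3r, which sets the gate, supplied 16234 and 16079 CPM of these sums. Cxcr2, which does not, stood at 5403 and 5585 CPM against 84.1 and 245 CPM in Epcam-high barcodes, and Il1r2 at 7888 and 8645 against 632 and 714 CPM. The fibroblast genes, 4 of 6 listed, still summed to 79196 and 56721 CPM there, compared with 105496 and 87981 CPM in the Lum-positive gate, so fibroblast transcripts were present in these barcodes too. The macrophage genes Mrc1 and Cd68 were also present there, at 13225 and 9305 CPM in EKP and 11110 and 9638 CPM in RKP. The part of fibroblast and macrophage transcripts in the Gad1 level was not tested.

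In that gate Gad1 stood at 467 CPM in EKP (442 to 494) and 383 CPM in RKP (360 to 407), a level 1.22-fold higher in EKP (1.12 to 1.33). The control codeword stood at 98.0 and 91.1 CPM. At least 1 Gad1 count was found in 5.38% of EKP and 4.53% of RKP barcodes, and in 2.57% and 2.23% after thinning. The thinned shares were 0.814% and 0.724% in Lum-positive barcodes without Epcam and 0.549% and 0.160% in Epcam-high barcodes. Before thinning, the median gene counts were 108 and 105 in the Csf3r gate against 261 and 241 in Epcam-high barcodes. Levels by depth are given below.

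Set against Lum-positive barcodes without Epcam, which are rich in fibroblast transcripts, Gad1 was 3.23-fold higher in the Csf3r gate in EKP and 3.28-fold higher in RKP. In RKP this was uncommon, since 6.83% of 439 genes reached 2-fold, and Gad1 was 12th. In EKP 27.5% of 473 genes did, and Gad1 was 23rd. The Lum gate's own Gad1 level was near the control codeword: 145 against 120 CPM in EKP and 117 against 144 CPM in RKP. With barcodes that carried both markers removed from each gate, the ratio was 7.58 in EKP and 6.78 in RKP.

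Gad1 was higher with more Csf3r counts in both sections. In RKP barcodes with no Epcam this also held for Gabrp, as given above. With no Epcam count, EKP barcodes had 116 CPM of Gad1 at 0 Csf3r counts, 257 at 1, 459 at 2, 851 at 3 to 4 and 1234 at 5 or more. RKP barcodes had 60.2, 194, 447, 718 and 1066 CPM. The 6925 EKP and 6817 RKP barcodes with both Csf3r and Cxcr2, the chemokine receptor of neutrophils, stood at 1036 and 864 CPM. Without Csf3r, Ptprc-positive barcodes with no Epcam stood at 119 and 78.6 CPM, close to the control codeword at 82.5 and 69.5 CPM, so the Gad1 of the leukocyte gate went mostly with Csf3r.

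**Figure D4:**
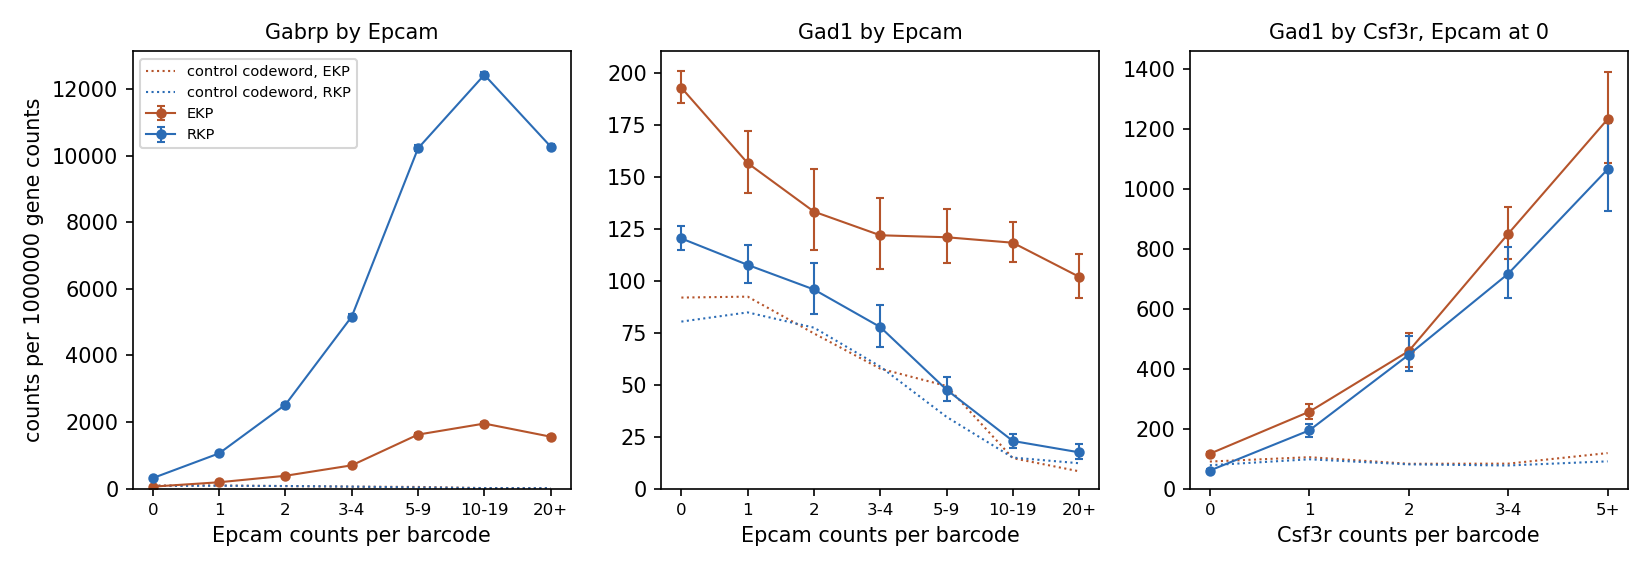
Gabrp by Epcam count (left), Gad1 by Epcam count (middle) and Gad1 by Csf3r count in barcodes with no Epcam (right), in counts per 1000000 gene counts with 95% counting intervals; dotted lines are the highest control codeword. Gad1 is higher at each step of Csf3r in both sections, up to 1234 and 1066 CPM; by Epcam count it lies between 102 and 121 CPM in EKP from 5 Epcam counts on and is at 17.5 CPM in RKP at 20 or more. From 0 to 20 or more Epcam counts, median gene counts went from 130 to 379 in EKP and from 127 to 391 in RKP.

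Depth moved with Gad1 within the gates. In the EKP Csf3r gate without Epcam it stood at 1081 CPM in barcodes with 40 to 79 gene counts, 573 in the bin from 80, 226 in the bin from 160 and 110 at 320 or more, the last from 22 counts. In RKP the levels were 867, 478, 170 and 98.6 CPM. Lum-positive barcodes without Epcam went the same way, from 506 to 53.7 CPM in EKP and from 390 to 32.0 CPM in RKP. In every bin of both sections the Csf3r gate was above the Lum gate. Epcam-high barcodes of EKP stood at 349, 167, 122 and 95.4 CPM in the same bins. At 320 or more gene counts the EKP intervals of the Csf3r gate (69.0 to 167) and the Epcam-high gate (87.4 to 104) overlapped. In RKP the Epcam-high levels were 69.2, 52.0, 29.8 and 21.2 CPM.

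Among barcodes with Csf3r and no Epcam, those that carried Gad1 had more of other neutrophil transcripts. After thinning, Cxcr2 was 2.29-fold higher in carriers in EKP and 2.16-fold in RKP. Pglyrp1, a neutrophil granule protein gene, was 2.19-fold and 2.43-fold higher. EKP carriers also had 2.72-fold more Mrgpra2a, 2.50-fold more Asprv1 and 2.43-fold more Ifitm6, and RKP carriers 2.01-fold more Stfa2l1 and 1.81-fold more Il1r2, the decoy receptor for interleukin-1. Over the 24 gates, the genes most like Gad1 were Retn (r = 0.87), Muc2 (r = 0.86), Gp2 (r = 0.85), Mrgpra2a (r = 0.84) and Marco (r = 0.82), a set that mixes myeloid and intestinal genes. The correlation of Gad1 with Gabrp was -0.50 over the 24 gates, -0.22 over the 11 EKP gates and -0.24 over the 13 RKP gates.

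In Epcam-high barcodes the sections parted. Gad1 stood at 114 CPM in EKP (108 to 120) and 28.4 CPM in RKP (26.0 to 30.9), a 4.01-fold higher level in EKP (3.62 to 4.44), 14th from the EKP end of the 471 genes. The control codeword was nearly equal in both, at 21.0 and 19.7 CPM, so Gad1 was well above it in EKP and only a little above it in RKP. In Epcam-high barcodes with no count of Csf3r, Ptprc or Lum, Gad1 was 123 CPM in EKP from 909 counts and 17.4 CPM in RKP from 194 counts, 7.05-fold apart (6.03 to 8.28). The control codeword was at 12.4 and 9.17 CPM there.

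This difference was seen at every depth, at 5.04-fold (1.88 to 16.9, from 24 and 5 counts), 3.21-fold, 4.08-fold and 4.49-fold (3.77 to 5.38) in the 4 bins from 40 gene counts up. By Epcam count, EKP Gad1 went from 193 CPM at 0 to 121 at 5 to 9 and 102 at 20 or more. RKP Gad1 went from 120 to 47.6 and 17.5 CPM, while its control codeword went from 80.4 to 34.5 and 12.2 CPM. Median gene counts in these bins were 130, 179 and 379 in EKP and 127, 174 and 391 in RKP. The unthinned share with Gad1 was 2.64% at 0 Epcam counts and 3.43% at 20 or more in EKP. In RKP it was 1.66% and 0.651%. The part of depth in these differences was not tested. In the gland-like secretory barcodes of RKP, where Gabrp was highest, Gad1 had 17 counts, or 12.9 CPM.

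Krt8 barcodes without Epcam gave a similar contrast. Gad1 stood at 133 CPM in EKP and 37.6 CPM in RKP, 3.54-fold apart (2.79 to 4.52), with the control codeword at 40.8 and 22.8 CPM. EKP barcodes with the granule genes stood at 176 CPM from 81 counts, against 10.9 CPM for the control codeword; 0 of 178 RKP barcodes of this kind had a Gad1 count, which allows a share of barcodes with a count of up to 1.69% when 3 counts are taken as the limit.

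The epithelial barcodes that carried Gad1 differed from non-carriers in several genes. In EKP, carriers at thinned depth had 2.30-fold more Ndrg1 (2.03 to 2.60), 2.25-fold more F3, 2.15-fold more Scg2 (from 11 counts), 2.05-fold more Selenbp1 and 1.64-fold more Vegfa (1.47 to 1.83). Ndrg1 and Vegfa are known hypoxia-responsive genes, and Scg2 encodes a secretory granule protein. Mki67 was at 0.396 of the non-carrier level in EKP (0.181 to 0.753). The top gene by size, Cstdc4 at 4.16-fold, rested on 13 counts and was at 2.00 against non-carriers of like depth without thinning. Mki67, from 9 counts, was at 0.619 by that measure.

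In RKP, carriers had 18.1-fold more Cxcr2 (12 to 26.3), 10.5-fold more Csf3r (7.08 to 15.1), 8.17-fold more Krt79, 5.44-fold more Il1r2 and 4.48-fold more Ncf4, which except for the keratin are genes of neutrophils and other phagocytes. Ndrg1 stood at 0.874 there (0.541 to 1.34) and Vegfa at 0.823 (0.626 to 1.06). Against non-carriers of like depth without thinning, Cxcr2 was at 8.88, Csf3r at 7.24, Il1r2 at 3.69 and Ncf4 at 2.64, while Krt79, which rested on 12 thinned counts, was at 1.29. EKP carriers also had more Cxcr2, at 4.28-fold (1.38 to 10.1) from 5 thinned counts and 2.72 without thinning. Their Csf3r was at 2.15-fold (0.786 to 4.72), from 6 counts, and at 1.94 without thinning. RKP Epcam-high barcodes without Csf3r had 22.2 CPM of Gad1 and those with 5 or more Csf3r counts had 611 CPM, the latter from 39 counts. In EKP the same groups had 112 and 573 CPM, the latter from only 6 counts. Without Csf3r, Gad1 in the epithelial gate was thus higher in EKP than in RKP. The difference between sections in the carrier ratios was not tested.

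Co-detection was compared within Epcam-high barcodes of like depth. Among EKP Epcam-high barcodes 182 carried both genes, where 274 would be expected from each gene's share at the same depth. The odds ratio pooled over depth bins was 0.590 (0.502 to 0.693), and Gad1 was present in 1.93% of Gabrp carriers and 3.02% of the others. Among RKP Epcam-high barcodes 358 carried both against 389 expected, with an odds ratio of 0.729 (0.602 to 0.882). Gad1 was present there in 0.658% of Gabrp carriers and 0.854% of the others.

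Both genes were thus found together less often than expected from depth in each section's Epcam-high gate. The value depended on the gate in RKP and less so in EKP. In barcodes with no count of Csf3r, Ptprc or Lum, the odds ratio was 0.568 in EKP (0.468 to 0.690) and 0.902 in RKP (0.628 to 1.30). With the gate raised to 10 Epcam counts it was 0.579 in EKP and turned to 1.06 in RKP. In RKP 69.1% of Gad1 carriers also had Gabrp, compared with 74.4% of all Epcam-high barcodes, and in EKP 15.3% compared with 22.0%. Thinning left 6 EKP barcodes with both genes against 13.7 expected and 29 RKP barcodes against 38.2. The difference between the sections' odds ratios was not tested.

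Within a section, levels also varied along the order of barcodes in the file, a partial stand-in for place, since positions are not among the files used here. Over 10 successive parts, Gabrp in Epcam-high barcodes ran from 839 CPM through a median of 1653 to 2507 CPM in EKP. In RKP it ran from 7243 through 10070 to 15400 CPM. Gad1 in the same gate ran from 81.7 through 123 to 182 CPM in EKP and from 15.2 through 27.6 to 40.4 CPM in RKP. For both genes the ranges of the sections did not overlap in this gate. How many other genes would separate in this way was not computed, so the separation is a description of genes chosen with their difference known. On pooled counts, a different measure, 16.6% of genes had an RKP excess of 2-fold or more and 22.7% an EKP excess.

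In Csf3r-positive barcodes without Epcam, Gad1 ran from 318 through 447 to 703 CPM in EKP and from 268 through 337 to 664 CPM in RKP, so there the sections overlapped over most of their range. These parts are pieces of 1 section each and do not replace replicate tumours.

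**Figure D5:**
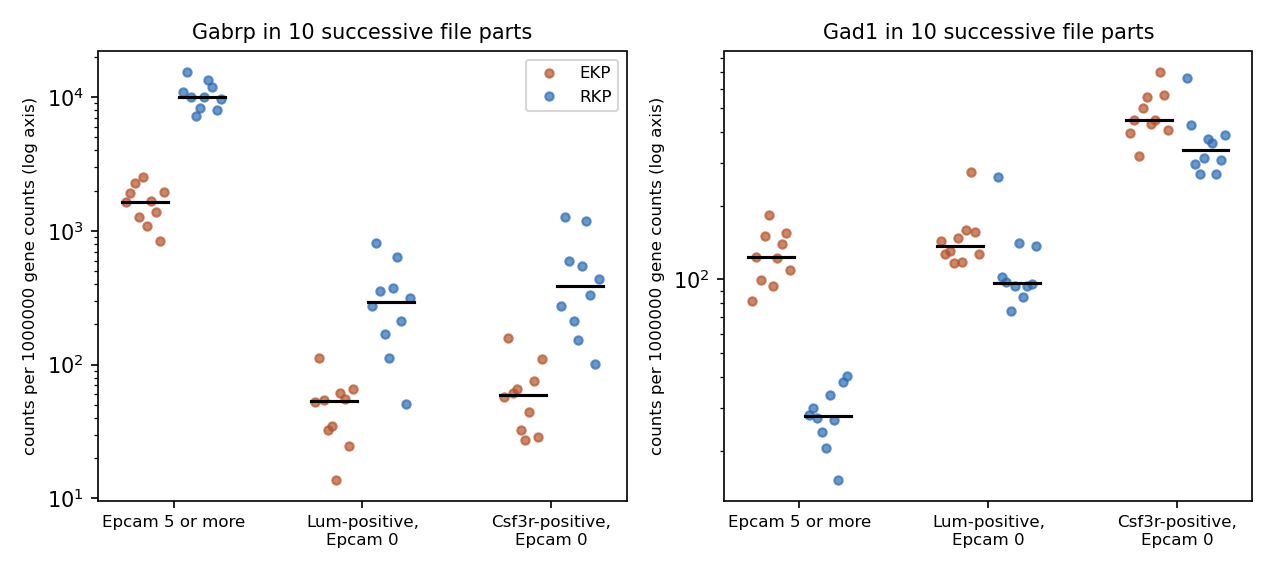
Level of Gabrp (left) and Gad1 (right) in each of 10 successive parts of the barcode file, in counts per 1000000 gene counts (log axis). The gates are Epcam-high barcodes and, without Epcam, Lum-positive and Csf3r-positive barcodes. Each point is 1 part of 1 section. The sections separate for both genes in Epcam-high barcodes and overlap for both in the Lum and Csf3r gates. Both genes were chosen with their section difference known, and the parts do not replace replicate tumours.

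Other gene lists, for ductal and secretory epithelium and for neuronal and endocrine cells, were compiled with results of these data known. Of 12 ductal and secretory epithelial genes, 9 were on the panel; in Epcam-high barcodes 7 had an RKP excess of 2-fold or more, 0 an EKP excess of that size and 2 neither, and the median log2 difference was 1.77 against -0.24 over all genes. Cldn2 stood at 1087 CPM in EKP and 11474 CPM in RKP, Prom1 at 7097 and 23579 CPM, and Lgr5, a stem cell receptor gene, at 325 and 1825 CPM. Gabrp, with a log2 difference of 2.68, lay on the same side. Cldn2, Prom1, Muc4, Muc20 and Lgr5 of this list were also named above among the genes most like Gabrp. The list therefore gives no separate support for the section difference of Gabrp.

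Of 20 neuronal and endocrine genes, 11 were on the panel and 10 stood above the highest control probe in Epcam-high barcodes. Of these, 7 were at least 2-fold higher in EKP, 0 in RKP and 3 lay between, with a median log2 difference of -1.51. Among the 7, Myt1l, Gria2, Calb1 and Slc17a7 stood at only 10.0 to 15.8 CPM in EKP. They were below the control codeword in both sections, at 21.0 CPM in EKP and 19.7 CPM in RKP, while Snap25, Scg2 and Ptprn2 were above it in EKP. Scg2 stood at 550 CPM in EKP and 22.0 CPM in RKP, and Snap25, a synaptic vesicle fusion gene, at 618 and 140.0 CPM. Gad1, at -2.0, lay on the same side as this list, opposite to Gabrp. Of all genes in this gate, 16.6% and 22.7% reached 2-fold in RKP and EKP. Since both lists were compiled with these data known, their counts are descriptions.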

How the data were processed

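The deposited files hold 1 matrix per section of unnormalized transcript counts by feature and barcode, which the authors made; per the file headers it came from Xenium software of unknown version. The submitters' processing notes list Seurat 4.4.0 without its role. Segmentation, quality limits on decoded transcripts, the panel's genome build and cell positions were not given in the sources used. Segmentation can assign a transcript to a neighbouring cell, which touches every gate.

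The genes, gates, lists and comparisons were chosen with earlier results of these data known. Sections were grouped by their titles. Barcodes with 40 or more gene counts entered the gates. Counts were summed per section and gate and divided by the gate's total gene counts (CPM). Intervals are exact at the 95% level (conditional binomial for ratios, Clopper-Pearson for shares) and cover counting error only. Genes entered a background share when above the highest negative control probe in at least 1 of the groups compared; a lower group under that level was set to it. A difference was counted at 2-fold, a rule of size. Thinning drew 40 counts per barcode without replacement. Expected co-detection and the Mantel-Haenszel odds ratio used depth bins starting at 40, 80, 160 and 320 gene counts, with the Robins-Breslow-Greenland interval. Named genes were both members in full, list members on the panel, and the 5 most like each member by correlation of log2(CPM + 1) over gates or by ratio in carriers at 1000 CPM or more in carriers or non-carriers. Carrier ratios without thinning, observed over expected in the same depth bins, were added after seeing the data. Genes shown beside these were picked after their values were seen. Doublets were not called. Python 3.11.15, NumPy 2.4.6, SciPy 1.17.1 and pandas 2.3.3 were used, and the code was tested on simulated data. Alternatives covered scaling, thinning depth, gate limits and background.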

Additional observations from a re-analysis of the deposited data

Results flagged for a closer look

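Gad1 in Lum-positive barcodes, taken against all other barcodes of the section, lay on opposite sides of 1: the ratio was 0.693 in EKP and 1.22 in RKP. Without Epcam the ratios were 0.933 and 1.71. For barcodes with 2 or more counts of the macrophage gene Cd68 they were 0.873 and 1.30. These differences between the sections were not tested. Epcam-high barcodes, part of the others in each ratio, had 114 CPM of Gad1 in EKP and 28.4 CPM in RKP.

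One negative control codeword, outside the gene measurements, had 1897 counts in EKP and 2373 in RKP, far above the unassigned codeword at 39 and 20 counts. In Lum-positive barcodes without Epcam it stood at 144 CPM in RKP, above Gad1 at 117 CPM, and at 120 CPM in EKP, below Gad1 at 145 CPM.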

How the results depend on the processing

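No paired analysis was possible because each group has 1 section, and for the same reason no section could be left out. Gabrp was higher in RKP and Gad1 higher in EKP under every scaling, gate and background subtraction tried. Taken as a multiple of the mean control probe, Gad1 over whole sections was not higher in EKP. Counts per barcode, in place of per total, moved the median log2 ratio over 441 genes from -0.24 to 0.27. Of the values below, those on Csf3r over Lum, on Csf3r or Cxcr2 and on the codeword were chosen after seeing the data. The cause of each shift was not tested.

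Over whole sections the RKP over EKP ratio of Gabrp was 10.2 per barcode, 8.42 with median-of-ratios scaling and 7.22 in barcodes with 40 or more counts. For Gad1 it was 0.531, 0.439 and 0.491 in that order, and 0.174 with the highest control codeword subtracted, against 0.371. In Epcam-high barcodes the Gabrp ratio was 6.14 per barcode and 6.88 with no Csf3r, Ptprc or Lum count. The Gad1 ratio, 0.249, was 0.307 with 3 or more Epcam counts, 0.187 with 10 or more, 0.142 with no Csf3r, Ptprc or Lum, 0.195 with no Csf3r or Cxcr2 and 0.0934 with the codeword subtracted.

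The RKP minus EKP difference in the thinned share of barcodes with Gabrp was 26.9 percentage points; it was 40.2 at 80 counts, 52.3 without thinning, 27.7 with 10 or more Epcam counts and 30.3 with no Csf3r, Ptprc or Lum. For Gad1 it was -0.389, and -0.667, -2.07 and -0.502 at 80 counts, without thinning and with no Csf3r, Ptprc or Lum. The EKP co-detection odds ratio, 0.590, was 0.423 after thinning and 0.267 for 2 or more counts of each gene. In RKP, 0.729 became 0.417 for 2 or more counts and reversed to 1.06 with 10 or more Epcam counts.

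The Gad1 ratio of Csf3r-positive over Lum-positive barcodes was 5.11 in EKP and 5.59 in RKP with 2 or more Csf3r counts, 7.17 and 7.40 with Csf3r and Cxcr2, 7.58 and 6.78 with each gate free of the other marker, and 2.82 and 2.96 from 80 gene counts up. Gad1 had at most 4 counts in a barcode and 537 counts in all RKP Epcam-high barcodes.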

Other observations

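Barcodes with fewer than 40 gene counts lie outside every gate above. In all EKP barcodes Gad1 went down with depth, from 1901 CPM at 1 to 9 gene counts through 606 CPM at 40 to 79 to 86.0 CPM at 320 or more. The highest control codeword did not, at 5.13, 77.2 and 35.7 CPM in the same bins, while the mean negative control probe went from 46.9 to 0.836 CPM. In RKP Gad1 stood at 597 CPM in the first bin, from 9 counts, at 315 CPM in the middle one and at 26.9 CPM in the deepest, where the codeword stood at 29.9 CPM. Low-count EKP barcodes held 2324 Gad1 counts, or 1547 CPM, and those of RKP 311, or 651 CPM. They held 33.6% of Gad1 counts and 4.75% of the counts of all genes in EKP, and 8.66% and 1.08% in RKP. Of Gabrp counts they held 5.39% in EKP and 0.239% in RKP. EKP Gabrp stood at 1215 CPM at 1 to 9 gene counts, 349 CPM in the bin from 80 and 1242 CPM at 320 or more, and RKP Gabrp at 663, 3576 and 8059 CPM. Below 20 gene counts the RKP level of Gabrp was thus not above that of EKP.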
